A study of Mus musculus with 4 samples.

Results

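Kinesins are motor proteins that hydrolyse ATP to move along microtubules or to shorten microtubule ends. Some act in mitosis, where they separate the spindle poles, move chromosomes and build the midzone at which a cell divides. Others carry vesicles, organelles and mRNA through axons and dendrites or move cargo along the cilium, which in photoreceptors becomes the connecting cilium that serves the outer segment. The genes described here are those with a symbol of Kif or Kifc followed by a digit among features (probe sets) annotated with exactly 1 gene. The rule found 46 features of 40 genes, among 18920 genes and 22431 features on the array, and the brightest feature by mean over the arrays stands for its gene. By known function 12 of the 40 were classed as mitotic, 14 as transport, 9 as ciliary and 5 as other. These classes were set with earlier results of these data known. The class of other genes includes the pseudogene Kif4-ps.

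Retinal cells of BAC-Crx-EGFP mice on a 129Sv/Ev genetic background were sorted by reporter fluorescence at embryonic day E17.5, which gave EGFP-positive and EGFP-negative fractions. Both fractions carry the same transgene, a bacterial artificial chromosome in which Crx regulatory sequences drive the reporter EGFP. Crx encodes a transcription factor of photoreceptor precursors, so the positive fraction is defined by a photoreceptor gene. The negative fraction holds the retinal cells sorted as negative, and the sample titles give no sort gate. RNA was hybridised to Affymetrix whole-transcript arrays, with 2 replicates per fraction and 1 array each. Whether the replicates are separate animals or sorts is not in the labels, so p-values rest on a spread between samples that may be technical.

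The study asked how the expression profile of the positive cells differs from that of the negative cells. Values are normalised intensities, and differences are EGFP-positive minus EGFP-negative on the log2 scale with the moderated standard error (SE) of limma, n = 2 per fraction. A gene was called when its two-sided limma p-value, adjusted by Benjamini-Hochberg over all 22431 features, was under 0.05. Crx itself read 3628.7 and 4758.8 in the positive cells and 292.2 and 370.1 in the negative cells. Of 10 fixed markers of photoreceptor precursors, 7 were called higher in the positive cells and none lower. The median over all features was -0.01. Normalisation brings the arrays to a like level, so a general shift between the fractions could not be seen, and none was taken off.

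Of the 40 kinesin genes, 2 were called higher in the EGFP-positive cells, against 0.82% of all features. These were the ciliary kinesin gene Kif19a, 5.16-fold higher, and the neuronal kinesin gene Kif21b, 2.53-fold higher. None was called lower by limma, against 0.143% of all features, although 10 had an unadjusted p under 0.05 in that direction, where 9.83% of all features did, and 7 had one in the other direction, against 9.34%. Mitotic kinesins had a median difference of -1.03, a level 2.04-fold higher in the negative cells. Transport kinesins had a median of 0.16 and ciliary kinesins of -0.03, and the 5 other genes lay between -0.13 and 0.11 by their brightest features. Differences of at least 1.5-fold toward the negative cells were found in 12 kinesins, 11 of them mitotic, and in 4.35% of all features. In the other direction they were found in Kif19a and Kif21b and in 3.74% of all features. Classes were described by counts and medians, and the difference between them was not tested.

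**Figure D1:**
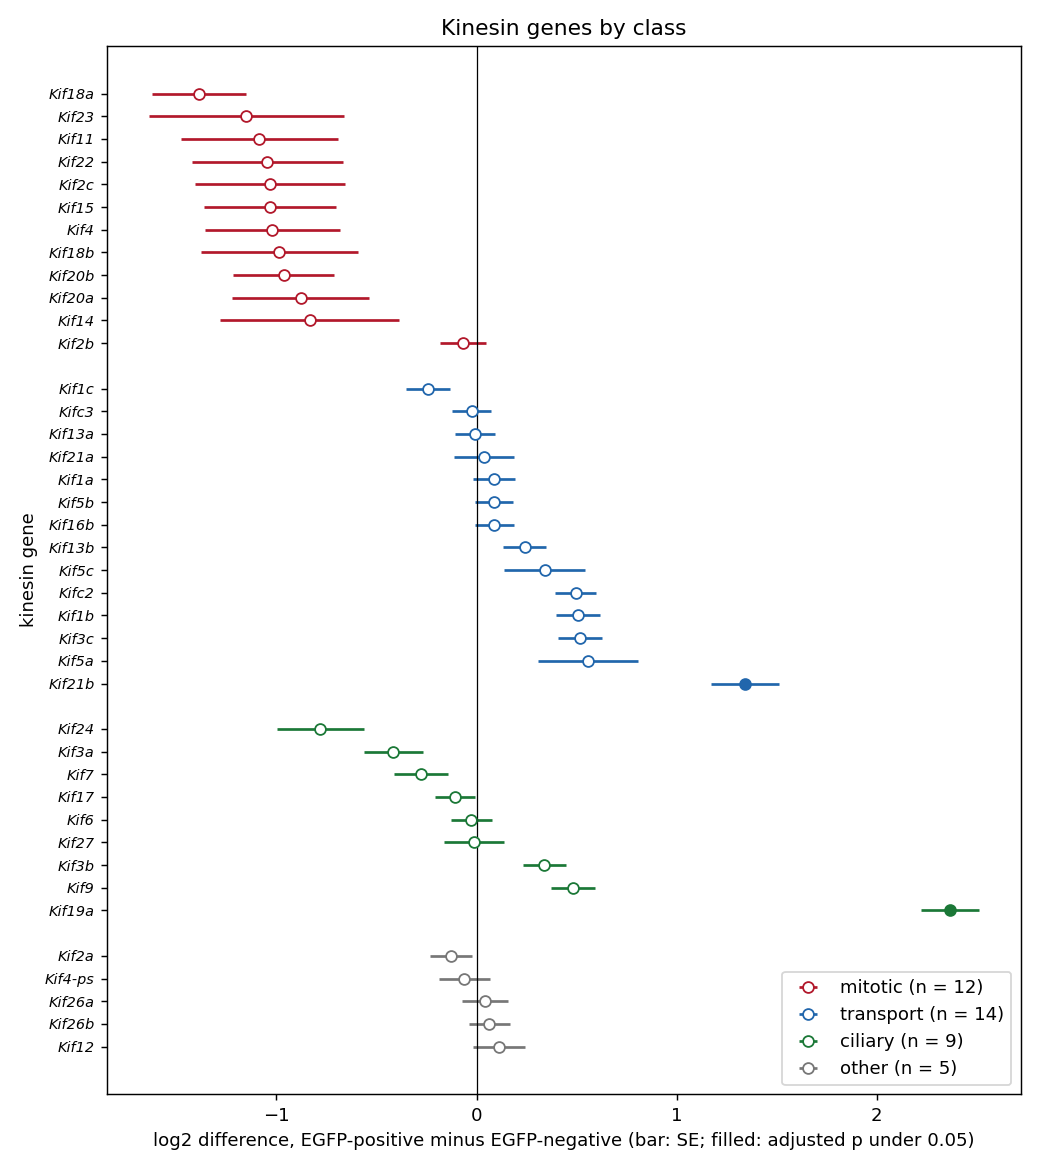
Log2 difference (EGFP-positive minus EGFP-negative) of the 40 kinesin genes, grouped by class, with bars for limma's SE (n = 2 arrays per fraction) and filled points for adjusted p under 0.05. The mitotic genes lie near -1 with wide bars except Kif2b at -0.07, and the 2 filled points are Kif21b at 1.34 and Kif19a at 2.37.

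All 12 mitotic kinesin genes had a lower mean in the EGFP-positive cells, and in 10 of them both positive arrays lay below both negative arrays. Over all features 25.3% were separated in this direction. None of the 12 passed the test, with adjusted p from 0.0759 for Kif18a to 0.839 for Kif2b. That fit ignores replicate numbers, and a fit that takes out the step between them (a replicate block) called 11 of the 12 lower. The block also called 1500 of all 22431 features lower, where the fit without it called 32. The labels do not say that a number marks a shared litter or sort, so the call depends on that assumption. In bulk RNA, fewer cells of a type and less RNA per cell cannot be told apart.

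Among motors that set up the spindle, Kif11, whose product slides antiparallel microtubules to separate the poles, read 1363.0 and 612.2 in positive cells, against 2267.2 and 1656.5 in negative cells. Both negative arrays were the higher ones, and the positive replicates differed from each other by more than the nearest arrays of the 2 fractions. The difference was -1.09 ± 0.39 (95% interval -2.08 to -0.09, adjusted p = 0.229). Kif15, which can support the same pole separation, read 1141.7 and 580.5 in positive cells, against 1856.4 and 1494.0 in negative cells (-1.03 ± 0.33, adjusted p = 0.188). The fractions did not overlap for Kif15 either.

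Kif18a, whose product dampens chromosome movement as chromosomes align, had the lowest difference of the family. It read 456.5 and 289.4 in positive cells, against 1023.4 and 883.3 in negative cells, so that the lower negative array was above the higher positive array by more than the replicates of either fraction differed. The difference was -1.39 ± 0.23 (95% interval -1.98 to -0.80, adjusted p = 0.0759). Kif18b, which trims astral microtubules, read 631.8 and 321.7 in positive cells, against 1158.1 and 687.9 in negative cells (-0.99 ± 0.39). Its lower negative array was close to its higher positive array.

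Kif2c, a microtubule depolymerase at centromeres, read 838.1 and 408.5 in positive cells, against 1455.0 and 985.0 in negative cells (-1.03 ± 0.38, adjusted p = 0.230). The chromosome-arm motor Kif22 read 681.8 and 344.9 in positive cells, against 1260.1 and 796.1 in negative cells (-1.05 ± 0.38). Kif4, a chromosome-bound motor that also shapes the spindle midzone, read 660.2 and 336.2 in positive cells, against 1091.7 and 836.7 in negative cells (-1.02 ± 0.34). In each of these 3 genes positive replicate 2 was the lowest array and negative replicate 1 the highest.

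Motors of cytokinesis showed the same order. Kif23, a subunit of centralspindlin, read 1094.6 and 425.6 in positive cells, against 1957.3 and 1175.3 in negative cells (-1.15 ± 0.49, adjusted p = 0.292). Kif20a, which brings the chromosomal passenger complex to the midzone, read 766.3 and 373.6 in positive cells, against 1063.9 and 911.3 in negative cells (-0.88 ± 0.34, adjusted p = 0.253). Kif20b, a midbody motor, read 413.5 and 251.9 in positive cells, against 684.7 and 579.1 in negative cells (-0.96 ± 0.25, adjusted p = 0.136). For these 3 genes the fractions did not overlap, and in Kif23 the gap between them was the narrowest.

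In Kif14, which works with citron kinase in abscission, the fractions overlapped, with 531.7 and 235.3 in positive cells and 829.5 and 478.9 in negative cells (-0.83 ± 0.45). Its other feature, at 55.5 to 74.6 on the 4 arrays, gave -0.23. Kif2b, a kinetochore depolymerase gene, was dim and flat, with 101.8 and 114.2 in positive cells and 117.7 and 108.8 in negative cells. Kifc1 and Kifc5b, the other mitotic genes that had been listed, had no feature of their own in the annotation used here.

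**Figure D2:**
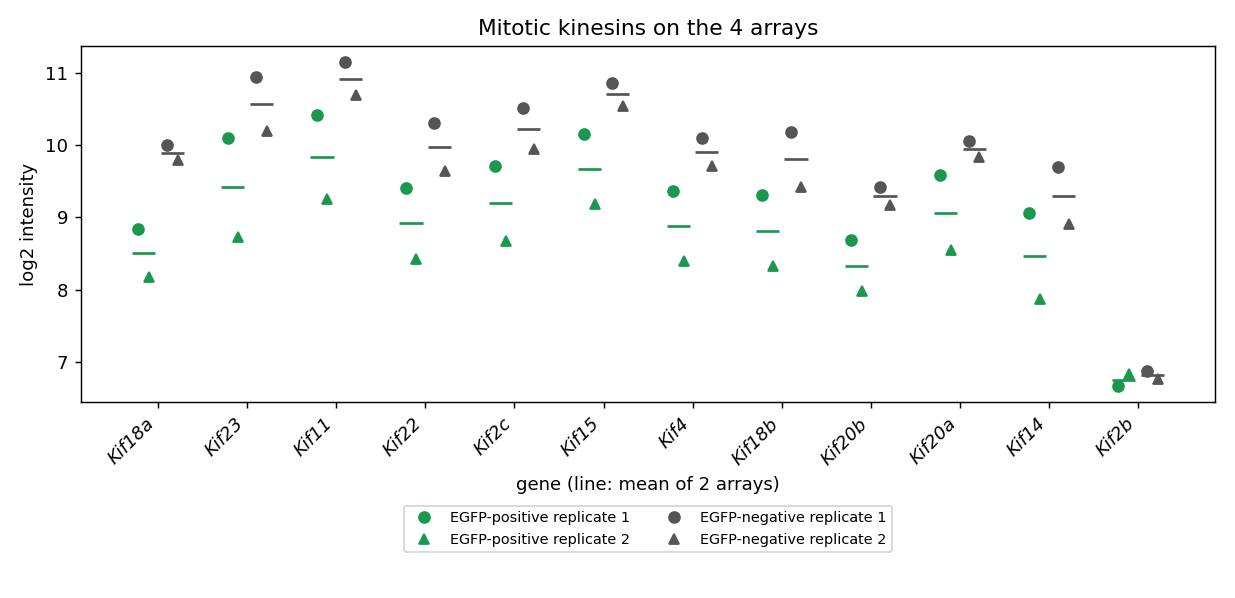
Log2 intensity of the 12 mitotic kinesin genes on the 2 EGFP-positive arrays (green, left of each gene) and the 2 EGFP-negative arrays (grey, right), with circles for replicate 1, triangles for replicate 2 and lines for the mean of 2 arrays. In every gene but Kif2b replicate 2 lies below replicate 1 within both fractions, and Kif14 is the gene where a negative array falls below a positive one among those 11.

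The mitotic kinesins also separated the replicates. In 11 of the 12, replicate 2 was lower than replicate 1 in both fractions, where 7257 of all 22431 features were. The median step of the class to replicate 2 was -0.98 among positive and -0.42 among negative arrays (log2). In 10 of the 12 the arrays ran, low to high, from positive replicate 2 through positive replicate 1 and negative replicate 2 to negative replicate 1, an order found in 11.7% of all features. Positive replicate 1 had class medians of -0.73 against negative replicate 1 and -0.24 against negative replicate 2. Positive replicate 2 had -1.82 and -1.28 against the same arrays. Without positive replicate 2 the median of the class was -0.51, and without positive replicate 1 it was -1.51. Each of these fits has a lone positive array, which is assumed to vary like the negative ones.

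Partners of these motors at the spindle and in cytokinesis leaned the same way. Of 27 measured partners none was called by limma in either direction. At an unadjusted limma p under 0.05, 18 were lower, where 9.83% of all features were. A negative difference was found in 26, and the median was -0.99. The lowest were the checkpoint kinase gene Bub1 (-1.41 ± 0.35, adjusted p = 0.125) and the kinetochore gene Kntc1 (-1.36 ± 0.32, adjusted p = 0.118). Within each fraction all 27 had their lower value on the array of replicate 2, and 22 had the array order of the mitotic kinesins. Of 9 measured progenitor markers, Sox2 was called lower, where 0.143% of all features were. A negative difference was found in 6 of the 9, and the median was -0.80. Pax6 (0.19), Rax (0.08) and Six3 (0.08) went the other way. The summed intensity of the 9 markers was 22722.5 and 19450.1 in positive cells and 31291.0 and 33003.9 in negative cells. The sum was thus lower on both positive arrays, and Ccnd1 and Fgf15 were its brightest members by mean level. In 6 of the 9 markers replicate 2 was the lower array within both fractions, where 7257 of all 22431 features had it lower. The median step of the markers to replicate 2 was -0.13 among positive and -0.07 among negative arrays. Single markers ranged widely, from Hes1 at -1.13 in positive and -0.53 in negative cells to Sfrp2 at 0.67 and 1.08. The part of progenitors in the mitotic values was not tested.

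Promoters of mitotic kinesin genes are shown because 10 of the 12 genes kept 1 array order together. Genes that peak in mitosis are known to carry a cell cycle genes homology region (CHR), with the core TTTGAA, and CCAAT boxes bound by the factor NF-Y. RefSeq promoters of GRCm38.p6, 250 bases before to 50 after the annotated start, were available for 31 of the 40 genes (35 promoters). Positions count from 1 at the first base of the gene, with -1 before it, and both strands were searched. Some genes have more than 1 promoter, and no match overlapped another within a promoter. Each line gives the strand of the gene, 5′ to 3′, with matches of both motifs in capitals (TTCAAA and ATTGG are the opposite-strand forms). The first 6 stretches cover bases -80 to 25 of mitotic genes, and each of them holds a TTTGAA. The mitotic promoters of Kif14, Kif18a, Kif20b, Kif2b and Kif2c are not printed, and those of Kif18a and Kif2b hold no TTTGAA.
Kif11, chr19:37376302-37376406, plus strand: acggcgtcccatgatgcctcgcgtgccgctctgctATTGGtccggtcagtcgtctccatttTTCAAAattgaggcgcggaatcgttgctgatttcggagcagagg
Kif15, chr9:122951001-122951105, plus strand: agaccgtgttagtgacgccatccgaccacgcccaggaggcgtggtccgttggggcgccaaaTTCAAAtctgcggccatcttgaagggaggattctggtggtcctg
Kif22, chr7:127042396-127042500, minus strand: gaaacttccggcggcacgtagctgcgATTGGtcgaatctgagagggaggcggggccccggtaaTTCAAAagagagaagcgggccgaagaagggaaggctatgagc
Kif23, chr9:61946775-61946879, minus strand: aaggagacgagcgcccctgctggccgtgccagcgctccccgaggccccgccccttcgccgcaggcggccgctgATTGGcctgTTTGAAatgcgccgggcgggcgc
Kif18b, chr11:102925100-102925204, minus strand: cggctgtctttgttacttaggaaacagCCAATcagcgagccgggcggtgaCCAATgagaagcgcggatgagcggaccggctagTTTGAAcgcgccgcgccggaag
Kif4, chrX:100625985-100626089, plus strand: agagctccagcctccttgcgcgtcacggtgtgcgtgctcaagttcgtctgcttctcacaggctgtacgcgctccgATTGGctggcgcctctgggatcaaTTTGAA
For comparison, the ciliary kinesin Kif3b holds a CCAAT but no TTTGAA in the same bases.
Kif3b, chr2:153291336-153291440, plus strand: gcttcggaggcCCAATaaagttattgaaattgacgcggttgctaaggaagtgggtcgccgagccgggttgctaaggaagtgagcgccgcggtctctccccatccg

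TTTGAA stood in 9 of the 11 promoters of mitotic kinesins, against 17.9% of all 32851 promoters. It was in 1 of 10 transport promoters, 1 of 9 ciliary promoters and 1 of 5 promoters of the other genes. Within 30 bases of the start it stood in 7 of the 11 mitotic promoters, a window chosen after the matches were seen, and in 2.9% of all promoters. CCAAT stood in 7 of the 11 mitotic promoters, in 2 of 10 transport promoters, in 5 of 9 ciliary promoters, in 1 of 5 promoters of the other genes and in 37.4% of all promoters. Both motifs together stood in 6 of the 11 mitotic promoters and in 6.95% of all. They also stood together in the promoters of Kif26b, with its TTTGAA in the same window near the start, and of the ciliary gene Kif27. The differences of these genes were near 0, at 0.06 for Kif26b and -0.01 for Kif27. The 2 mitotic promoters without TTTGAA were those of Kif18a, which had the lowest difference of all kinesins, and Kif2b, which was flat. TAATCC, a form of the site that Crx and Otx2 bind, was in 0 of 11 mitotic promoters, 1 of 10 transport promoters (Kif5c), 2 of 9 ciliary promoters (both of Kif9, overlapping), 1 of 5 promoters of the other genes (Kif12) and 7.06% of all. These matches describe letters in the sequence and not bound sites.

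**Figure D3:**
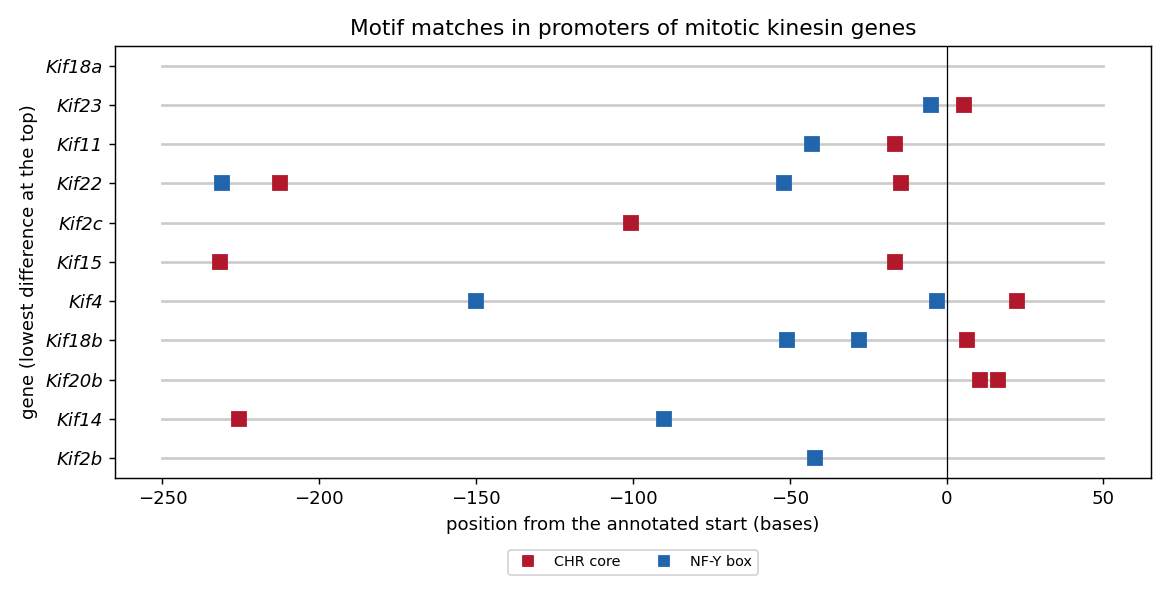
Positions of the CHR core (red) and the NF-Y box (blue) on either strand in the 11 RefSeq promoters of mitotic kinesin genes, in bases from the annotated start, with the gene of lowest difference at the top. The red marks of 7 genes gather within 30 bases of the start, Kif18a has no mark and Kif2b has a blue mark alone.

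Transport kinesins leaned the other way or lay near 0. Of 14 genes, Kif21b was called higher and none lower, 11 had a positive difference, and 8 had both positive arrays above both negative arrays, where 22.3% of all features did. Kif21b, a kinesin-4 motor of neurons that also restrains microtubule growth, read 1165.0 and 1523.3 in positive cells, against 483.4 and 572.9 in negative cells. It was higher in replicate 2 of each fraction, by 0.39 in positive and 0.25 in negative cells on the log2 scale. The lower positive array was 2.03 times the higher negative array, and the difference was 1.34 ± 0.17 (95% interval 0.91 to 1.77, adjusted p = 0.0473). That p was close to the threshold, and it was 0.0614 without positive replicate 2, 0.309 without negative replicate 1 and 0.230 without negative replicate 2. Its relative Kif21a read 942.5 to 1036.8 in positive cells and 856.5 to 1083.7 in negative cells, with full overlap.

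Close replicates marked 3 further genes that leaned toward the positive cells. Kif1b, a carrier of mitochondria and synaptic vesicle precursors, read 1965.0 and 2176.6 in positive cells, against 1493.3 and 1418.3 in negative cells (0.51 ± 0.11, adjusted p = 0.10). Kif3c, a neuronal kinesin-2 subunit, read 743.8 and 752.5 in positive cells, against 494.2 and 553.6 in negative cells (0.52 ± 0.11, adjusted p = 0.0979). Kifc2, a neuronal motor of the kinesin-14 family, read 249.6 and 232.5 in positive cells, against 174.9 and 166.9 in negative cells (0.50 ± 0.10, adjusted p = 0.0957). All 3 separated the fractions without overlap, at 1.42, 1.43 and 1.41 times the negative level, and none passed the test.

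The 3 heavy chains of kinesin-1, the motor that carries mitochondria, vesicles and other cargo outward along axons, differed in how steady they were. The broadly expressed Kif5b was nearly flat, with 1358.3 and 1342.8 in positive cells and 1259.6 and 1284.5 in negative cells (0.09 ± 0.10, 95% interval -0.16 to 0.33). The neuronal Kif5a read 543.8 and 751.7 in positive cells, against 354.8 and 531.4 in negative cells (0.56 ± 0.25, adjusted p = 0.319). The neuronal Kif5c read 1113.3 and 1500.2 in positive cells, against 891.1 and 1171.0 in negative cells (0.34 ± 0.20, adjusted p = 0.466). Kif5a and Kif5c were both higher in replicate 2 of each fraction, Kif5a by 0.47 in positive and 0.58 in negative cells on the log2 scale. Of 10 ganglion cell markers, 9 were higher in replicate 2 of both fractions, where 6506 of all 22431 features were, and none was called. Their summed intensities were 5238.2 and 8856.1 in positive cells and 3993.8 and 9471.0 in negative cells. The part of ganglion cells in the spread of Kif5a, Kif5c and Kif21b was not tested.

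The remaining transport kinesins had differences from -0.24 to 0.24. Kif1a, the axonal motor of synaptic vesicle precursors, read 1496.2 and 1580.9 in positive cells, against 1501.5 and 1398.6 in negative cells (0.09 ± 0.10, 95% interval -0.18 to 0.35). Kif13b (0.24 ± 0.11) had positive arrays above the negative ones, and Kif1c (-0.24 ± 0.11), a motor of vesicle traffic, had them below. The second feature of Kif1c gave -0.36. The endosomal motor Kif16b differed by 0.09, Kif13a by -0.01 and Kifc3 by -0.03.

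**Figure D4:**
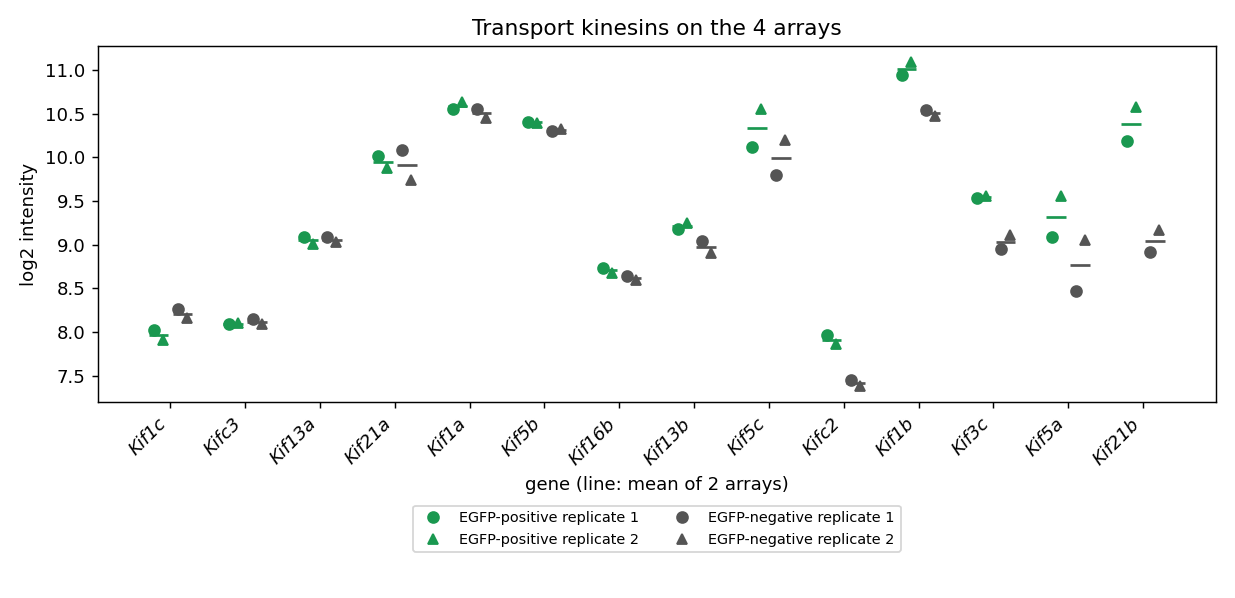
Log2 intensity of the 14 transport kinesin genes on the 2 EGFP-positive arrays (green, left) and the 2 EGFP-negative arrays (grey, right), with circles for replicate 1, triangles for replicate 2 and lines for the mean of 2 arrays. Kif21b shows the widest gap, Kif5a, Kif5c, Kif21b and, by little, Kif3c have both triangles above their circles, and Kif5b, Kif1a and Kif13a are nearly level.

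Cargo adaptors and light chains of kinesin-1 leaned toward the positive cells. Of 16 measured, 1 was called higher, where 0.82% of all features were, and none lower. A positive difference was found in 14, and the median was 0.39. The called gene was Trak2, whose product links kinesin to mitochondria, with 3081.6 and 3809.1 in positive cells and 829.9 and 923.3 in negative cells (1.97 ± 0.14, adjusted p = 0.0121). The lower positive array was 3.34 times the higher negative array. Of the genes not called, the cargo-docking gene Clstn1 gave 0.79 ± 0.11 (adjusted p = 0.0535), the light chain gene Klc3 0.73 ± 0.10 (adjusted p = 0.0510) and Trak1, a relative of Trak2, 0.56 ± 0.11 (adjusted p = 0.0885), all chosen after their values were seen. Genes of cytoplasmic dynein and dynactin, the motor that runs the opposite way, had a median of 0.01 with none of 20 called by limma. At an unadjusted limma p under 0.05, 4 were higher and 3 lower, where 9.34% and 9.83% of all features were. Nde1, a dynein regulator also needed in mitosis, gave -0.90 ± 0.28, and the light intermediate chain gene Dync1li1 gave 0.50 ± 0.24, the 2 values furthest from 0. Of 10 markers of amacrine and horizontal cells, 2 were called higher, against 0.82% of all features. Tfap2b, which encodes an AP-2 transcription factor, gave 1.06 ± 0.12 (adjusted p = 0.0399). Its relative Tfap2a gave 1.12 ± 0.14 (adjusted p = 0.0429). In 8 of the 10 both positive arrays lay above both negative arrays, where 22.3% of all features did. The 10 markers had summed intensities of 6670.4 and 8779.0 in positive cells and 4879.6 and 4704.1 in negative cells. Their part in the transport values was not tested.

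Ciliary kinesins held the largest difference of the family and no common direction. Of 9 genes, Kif19a was called higher and none lower, 3 had a positive and 6 a negative difference. Kif19a, which in mice controls the length of motile cilia by shortening microtubules at the ciliary tip, read 926.7 and 1159.1 in positive cells, against 210.0 and 192.3 in negative cells. The lower positive array was 4.41 times the higher negative array. The difference was 2.37 ± 0.14 (95% interval 2.0 to 2.73, adjusted p = 0.00893). It ranged from 2.21 to 2.53 when single arrays were left out, and the adjusted p was 0.122 without negative replicate 1 and 0.126 without negative replicate 2, fits in which no feature at all was called. Its promoter was not in the table used here, nor was that of Kif21b.

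The motors of intraflagellar transport, which carry material up the cilium, were split. Kif3a read 849.2 and 691.7 in positive cells, against 1100.9 and 949.7 in negative cells (-0.42 ± 0.15, adjusted p = 0.222). Its partner Kif3b read 612.8 and 654.8 in positive cells, against 521.5 and 481.6 in negative cells (0.34 ± 0.11, adjusted p = 0.184). These subunits of 1 heterotrimer leaned in opposite directions without overlap between fractions, and neither passed the test. Their accessory subunit gene Kifap3 differed by 0.14 ± 0.13. Kif17, a homodimeric kinesin-2 of cilia and dendrites, read 132.2 and 132.9 in positive cells, against 146.7 and 139.3 in negative cells (-0.11 ± 0.10, 95% interval -0.36 to 0.14).

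In the wider list of 20 intraflagellar transport genes with Kifap3, none was called by limma, and the median was -0.14. At an unadjusted limma p under 0.05, 5 were lower and 1 higher, where 9.83% and 9.34% of all features were. The lowest were Ift74 (-0.69 ± 0.11, adjusted p = 0.0663) and Ift27 (-0.59 ± 0.11, adjusted p = 0.0810), subunits of the anterograde complex. A negative difference was found in 15 of the 20.

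Kif24, a centriolar depolymerase that holds back cilium formation in cycling cells, had the lowest difference among ciliary genes. It read 377.2 and 259.0 in positive cells, against 602.1 and 479.3 in negative cells (-0.78 ± 0.22, adjusted p = 0.150). Kif24, Kif3a and Kif7 all had the array order of the mitotic kinesins. The promoter of Kif24 had no TTTGAA and 4 CCAAT boxes, all in the opposite-strand form, and 3 of them are shown in capitals.
Kif24, chr4:41464909-41465013, minus strand: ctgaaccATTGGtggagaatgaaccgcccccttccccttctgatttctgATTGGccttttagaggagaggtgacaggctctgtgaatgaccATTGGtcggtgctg
Kif7, which acts at the ciliary tip in Hedgehog signalling, differed by -0.28 ± 0.13 with positive arrays at 291.0 and 237.2 and negative arrays at 325.0 and 312.1. Kif9, a kinesin of motile cilia, read 141.5 and 157.7 in positive cells, against 104.6 and 109.4 in negative cells (0.48 ± 0.11, adjusted p = 0.110). Kif6, another kinesin of motile cilia, and Kif27, a relative of Kif7, were dim and overlapped between fractions, with differences of -0.03 and -0.01. Kif6 had another feature at 0.02, so its sign is not settled.

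**Figure D5:**
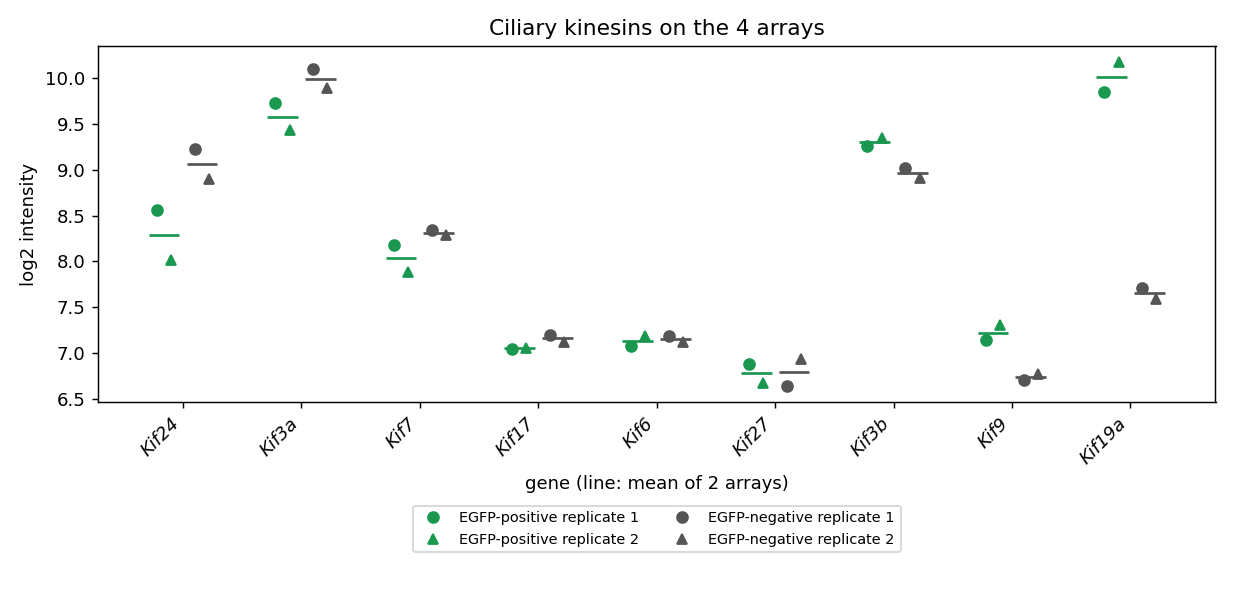
Log2 intensity of the 9 ciliary kinesin genes on the 2 EGFP-positive arrays (green, left) and the 2 EGFP-negative arrays (grey, right), with circles for replicate 1, triangles for replicate 2 and lines for the mean of 2 arrays. Kif19a has a mean of 10.02 in positive and 7.65 in negative cells, and Kif3a and Kif3b lean in opposite directions.

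None of the 5 other genes was called, with adjusted p of at least 0.611. Kif2a, a depolymerase that prunes axon branches, read 1143.3 and 1211.5 in positive cells, against 1240.6 and 1336.1 in negative cells (-0.13 ± 0.11, 95% interval -0.40 to 0.14). By subfamily it is a kinesin-13, as are Kif2b and Kif2c, which were classed as mitotic. The mitotic counts depend on this placing. Kif26a and Kif26b, atypical members of the family, differed by 0.04 and 0.06, and Kif12 by 0.11. The pseudogene Kif4-ps read 99.6 to 118.6 on the 4 arrays with a difference of -0.06, while its other feature gave -0.35 without overlap and the mean of both -0.21. Its reading is uncertain, since probes of a pseudogene can share sequence with its parent gene.

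The arrays carry no detection call, so whether a dim gene was above background is not known. None of the 40 kinesins lay below the lower quartile of all features by mean level, and 9 lay below the median. Markers of microglia (5 measured), endothelium (5) and erythroid cells (2) gave no call, with medians of -0.15, 0.00 and 0.02. Among the endothelial markers Kdr read 3171.2 and 1107.0 in positive cells, against 4888.5 and 2883.9 in negative cells (-1.0 ± 0.53, not called), with replicate 2 lower in both fractions. The other 4 lay between -0.09 and 0.24, and the part of Kdr-expressing cells in the mitotic values was not tested.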

How the data were processed

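The deposited table gives each array a column of normalised linear intensity, from 18.9 to 36625.2 with array medians of 218.4 to 222.9. RMA and the genome build mm8 are named in the submitters' processing notes, with versions, probe sets and filters not given in the sources used here. RMA usually gives log2 values, so the linear scale was inferred from the range. Log2 was taken without a pseudocount. Platform annotation gave 1 symbol for 20176 features, several for 412 and none for 1843, and no feature with several symbols named a kinesin. No kinesin symbol differed from the RefSeq table. Differences were fitted over all 22431 features with limma 3.58.1 in R 4.3.3 (lmFit, eBayes without a trend), with 5.27 degrees of freedom, a median SE of 0.12 and a smallest called difference of 0.75. Precision is limited by having 4 arrays. The fit was run on simulated data with independent noise on each array. Those data lack the correlation of 0.48 between the replicate deviations of the fractions, so they do not show how the fit does on these arrays.

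The members, classes and companion lists were chosen with earlier results of these data known. Text names every kinesin, and of each companion list up to 4 called members or the 2 with the largest difference, with others given as chosen after their values were seen. Kif4-ps was put in its class after the table was seen. Alternatives left out each array, added a replicate block, changed scaling, eBayes options, filter and pseudocount, or averaged the features of a gene.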

Additional observations from a re-analysis of the deposited data

How the results depend on the processing

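The 2 replicates per fraction limit every call. A fit that leaves out 1 array takes its spread from the other fraction and assumes that the lone array varies like it. Leaving out single arrays moved the kinesins called higher between 0 and 2 and those called lower between 0 and 10, and moved all features called higher between 0 and 667 and called lower between 0 and 762. The 10 lower kinesins came without EGFP-positive replicate 1, and no feature was called without either negative array. The median of the mitotic kinesins ranged from -1.51 to -0.51, of the transport kinesins from 0.12 to 0.20 and of the ciliary kinesins from -0.11 to -0.06 in these fits. Differences near 0 changed sign in them, with ranges of -0.022 to 0.25 for Kif12, -0.059 to 0.15 for Kif26a and -0.16 to 0.039 for Kif4-ps. Kif21b alone lost its call with an eBayes trend (adjusted p = 0.0539) and with a pseudocount of 16 (adjusted p = 0.0532), which left 1 kinesin called higher. With a trend 21 features were called lower, and with the features of a gene averaged 51. A replicate block called 1377 features higher and 1500 lower, with 7 kinesins higher and 13 lower, 11 of them mitotic. Replicate deviations of the fractions correlated at 0.48 over all features, but the labels do not say that a number marks a shared litter or sort, and the block takes up a degree of freedom. Of 300 values of 25 kinesins under 12 alternatives, 269 kept their direction and side of the threshold, 20 became called, 7 lost a call and 4 changed sign. The cause of these changes was not tested.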
